A study of Mus musculus with 18 samples.

Results

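The 55 genes described here encode the proteins that carry a newly made secretory protein into the endoplasmic reticulum (ER), trim and glycosylate it there, and pack it into the vesicles that run between the ER and the Golgi. They were chosen by symbol, with earlier results of these data known, from the 21761 genes of the RNA-seq table, and all 55 were found there. Sorted by step, 8 encode the signal recognition particle (SRP) and its receptor, 9 the translocon, 5 signal peptidase, 8 the oligosaccharyl transferase (OST), 10 the COPII coat, 7 the COPI coat and 8 cargo receptors of these vesicles. The 18 libraries came from 3 B lineage cell types in 2 genotypes, with 3 libraries in each of the 6 groups. Naive B cells (nB, B220+ GL7- Fas-) were taken from lymph nodes of unimmunized mice. Germinal center B cells (GCB, B220+ GL7+ Fas+ cells that bound phycoerythrin) and bone marrow plasma cells (BMPC, CD138+) were taken 30 days after immunization with phycoerythrin in adjuvant. All mice carried Dnmt3a fl/fl and Dnmt3b fl/fl, were 8 to 12 weeks old and were of mixed strain background. The Dnmt3-deficient ones also carried Cre, which deletes the catalytic part of both enzymes from an early B cell stage on, and the Dnmt3-sufficient littermates carried no Cre. Each library was made from 5000 sorted cells, of 2 pooled mice in the case of GCB, so replicates were separate mice or pools. Most nB and GCB libraries came from females and most BMPC libraries from males, alike in both genotypes. Levels are given as FPKM, the reads on a gene scaled by the length of its exons and by the reads on all genes of the table, and can therefore be compared between genes.

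A protein bound for secretion is recognized as its signal sequence leaves the ribosome. SRP takes the ribosome to a receptor in the ER membrane, the Sec61 channel lets the chain through, signal peptidase removes the signal sequence and OST transfers a preformed sugar chain onto asparagine residues. COPII vesicles then carry cargo forward to the Golgi, and COPI vesicles bring escaped ER proteins and receptors back. Plasma cells, which secrete antibody without pause, are known for an expanded ER, and the transcription factor XBP1 is known to drive many genes of this route in them.

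BMPC libraries held the fewest reads on the genes of the table, 1355231 to 3803197, and levels of low genes were least precise there. Those of nB held 6692516 to 8987922 such reads and those of GCB 7644544 to 8903872. These counts leave out reads on immunoglobulin heavy and light chain genes, so they are not the whole depth of a library. The cells carried the markers of their labels. Summed FPKM of 7 plasma cell markers was 18915 to 51504 in BMPC, 1173 to 1520 in GCB and 312 to 511 in nB, and the plasma cell receptor Tnfrsf17 was listed at 0 in all 6 nB libraries. The germinal center markers S1pr2 and Mybl1 were at 0 in all 6 BMPC libraries. RNA of other bone marrow cells was present in BMPC alongside. Summed FPKM of 5 erythroid markers was 1277 to 5480 in BMPC, 46.4 to 257 in nB and 6.29 to 19.9 in GCB. Sums of 7 neutrophil markers were 9.37 to 582 in BMPC, while all 7 were at 0 in the other 12 libraries, and sums of 3 T cell markers were 53.5 to 198 in BMPC and 17.9 to 59.2 in nB. The part of these cells in the results below was not tested. The targeted genes were read over all exons. Dnmt3a was 2.35 to 5.18 in Dnmt3-sufficient and 2.24 to 4.33 in Dnmt3-deficient nB, and since only the catalytic exons are deleted, a value over all exons does not check the labels. It was 0.0232 to 0.378 and 0.213 to 0.362 in GCB, and 0 to 0.768 and 0.0544 to 3.08 in BMPC. Dnmt3b overlapped between genotypes in nB (1.18 to 6.41 and 0.521 to 8.15) and BMPC (0 to 1.37 and 0 to 9.29), and in GCB it was higher in Dnmt3-deficient libraries, at 0.744 to 1.10 against 0 to 0.676.

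Promoter sequence was available for 44 of the 55 genes, as windows from 250 bases before to 50 after the start site (RefSeq, GRCm38.p6). They were searched on both strands for exact matches of 3 motifs bound by XBP1 or by ATF6, another transcription factor of the ER stress response. These were ERSE (CCAAT and CCACG with any 9 bases between them), ERSE-II (ATTGG and CCACG with any 1 base between them) and the XBP1 site (TGACGTGG). The stretches that held a match are printed here because they show which of these genes carry such letters near their start. The motif is in capitals, and CCACGTCA is the XBP1 site read on the other strand.
Krtcap2, ERSE-II, chr3:89246481-89246510, + strand: gggacacggATTGGaCCACGgacggggcgt
Sec24d, XBP1 site, chr3:123267450-123267495, + strand: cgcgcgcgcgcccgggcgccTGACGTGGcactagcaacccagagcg
Sec23a, XBP1 site, chr12:59011993-59012022, - strand: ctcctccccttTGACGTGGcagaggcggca
Copb1, XBP1 site, chr7:114254681-114254728, - strand: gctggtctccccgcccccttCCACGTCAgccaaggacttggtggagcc
Copb2, XBP1 site, chr9:98563713-98563742, + strand: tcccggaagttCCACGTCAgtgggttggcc
The XBP1 site was found in 4 of the 44 genes, which is 9.09%, and in 1.05% of the 9152 genes tested below that had a window. ERSE-II was found in 1 of the 44 and in 0.0983% of those 9152, and ERSE in 0 of the 44 and in 0.186%. A match is a description of the letters and not a binding site. As given below, Krtcap2 and Sec24d were higher in BMPC than in nB, Copb2 was lower, and Copb1 and Sec23a did not pass in that comparison.

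The first comparison asked how the route differs between plasma cells and naive B cells. In BMPC, 27 of the 55 genes were higher than in nB and 3 were lower. Among all 11522 genes tested, 8.76% were higher and 33.5% were lower. A gene passed when limma on log2(FPKM + 1), averaged over both genotypes, gave a Benjamini-Hochberg adjusted p of 0.05 or less and a difference of at least 1 on that scale. The median difference was 1.02 for the 55 genes and -0.79 for all genes tested. Levels of all 6 BMPC libraries lay above those of all 6 nB libraries for 24 of the 55 genes and for 6.01% of all genes tested. The 55 genes together took 2.1% to 2.97% of reads in BMPC, 0.992% to 1.05% in GCB and 0.794% to 0.947% in nB. In bulk RNA, fewer cells of a type and less RNA per cell cannot be told apart. The denominator leaves out reads on immunoglobulin heavy and light chain genes, which were not analysed here. Leaving them out raises the FPKM of all other genes, most where such reads are many, and the paper reports very high levels of them in BMPC. How much this added to the differences was not tested. Jchain alone took 3.4% to 9.8% of BMPC reads.

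**Figure D1:**
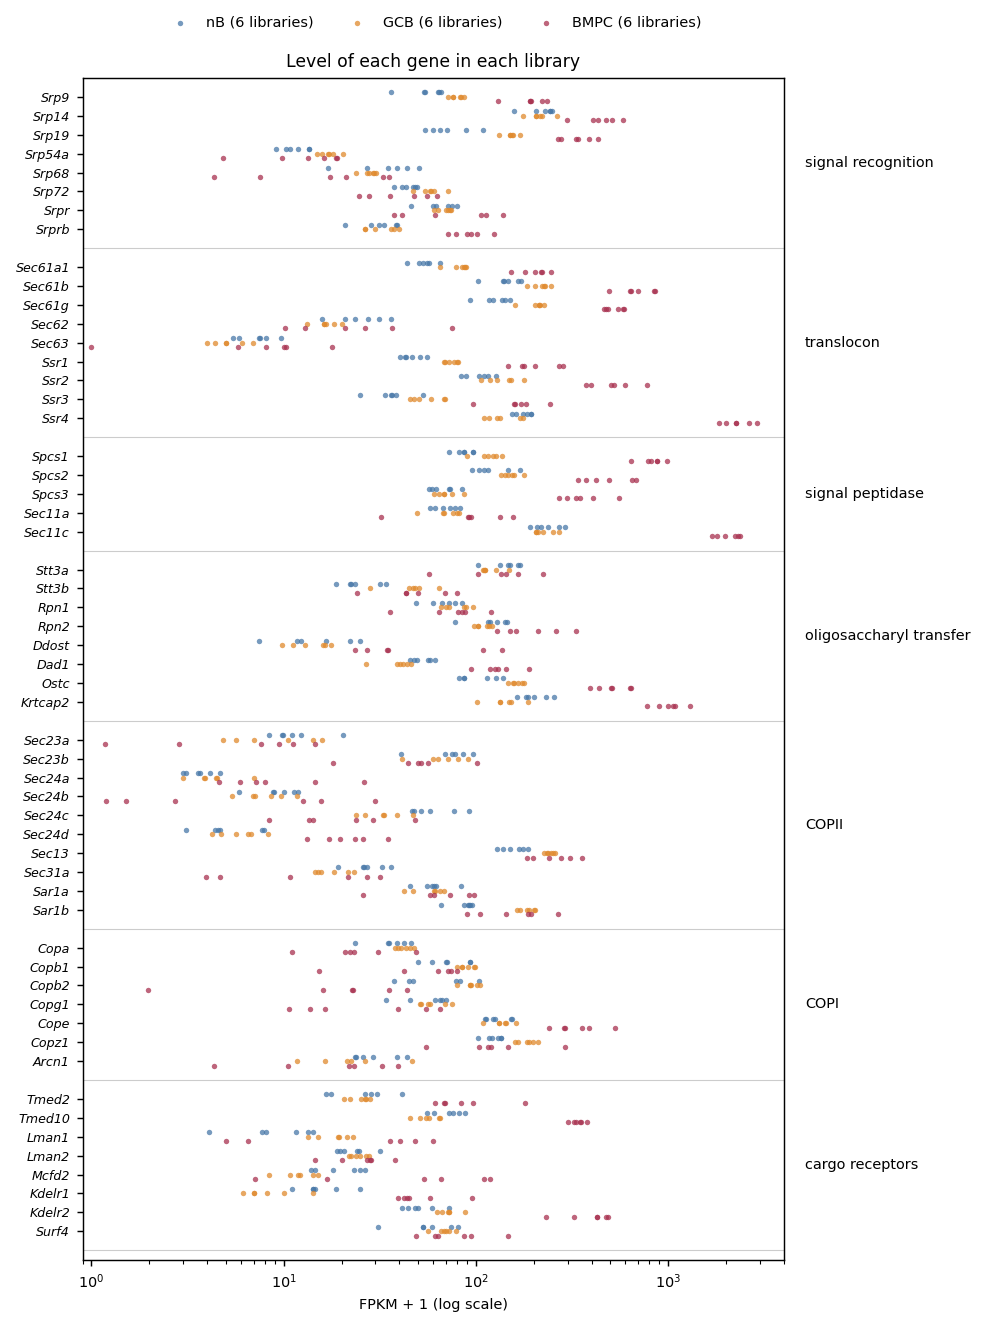
FPKM + 1 (log axis) of each of the 55 genes in each of the 18 libraries, 1 point per library, grouped by step. BMPC points lie to the right of the nB and GCB points for most genes of the translocon and signal peptidase, with Ssr4 (1843 to 2898 FPKM in BMPC) and Sec11c (1699 to 2352) farthest out. Of the cargo receptors, Tmed2, Tmed10, Kdelr1 and Kdelr2 do so and the others overlap. In the COPII and COPI coats the 3 cell types mostly overlap.

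The rise was uneven over the route. It took in 7 of 9 translocon genes, 4 of 5 signal peptidase genes and 5 of 8 cargo receptors, but 4 of 8 SRP genes, 4 of 8 OST genes, 2 of 10 COPII genes and 1 of 7 COPI genes. Of all genes tested 8.76% were higher and 33.5% lower. The median difference was 2.13 for the translocon, 2.41 for signal peptidase, 1.51 for cargo receptors, 1.13 for OST, 0.60 for SRP, -0.26 for COPII and -0.60 for COPI. The median of all genes tested was -0.79, so those of COPII and COPI were below 0 but not below that of all genes. In FPKM, the translocon genes summed to 4093 to 5380 in the BMPC libraries against 592 to 805 in nB, and the signal peptidase genes to a median of 3836 against 562. The COPI genes summed to 509 to 841 in BMPC and 419 to 575 in nB, with overlap.

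**Figure D2:**
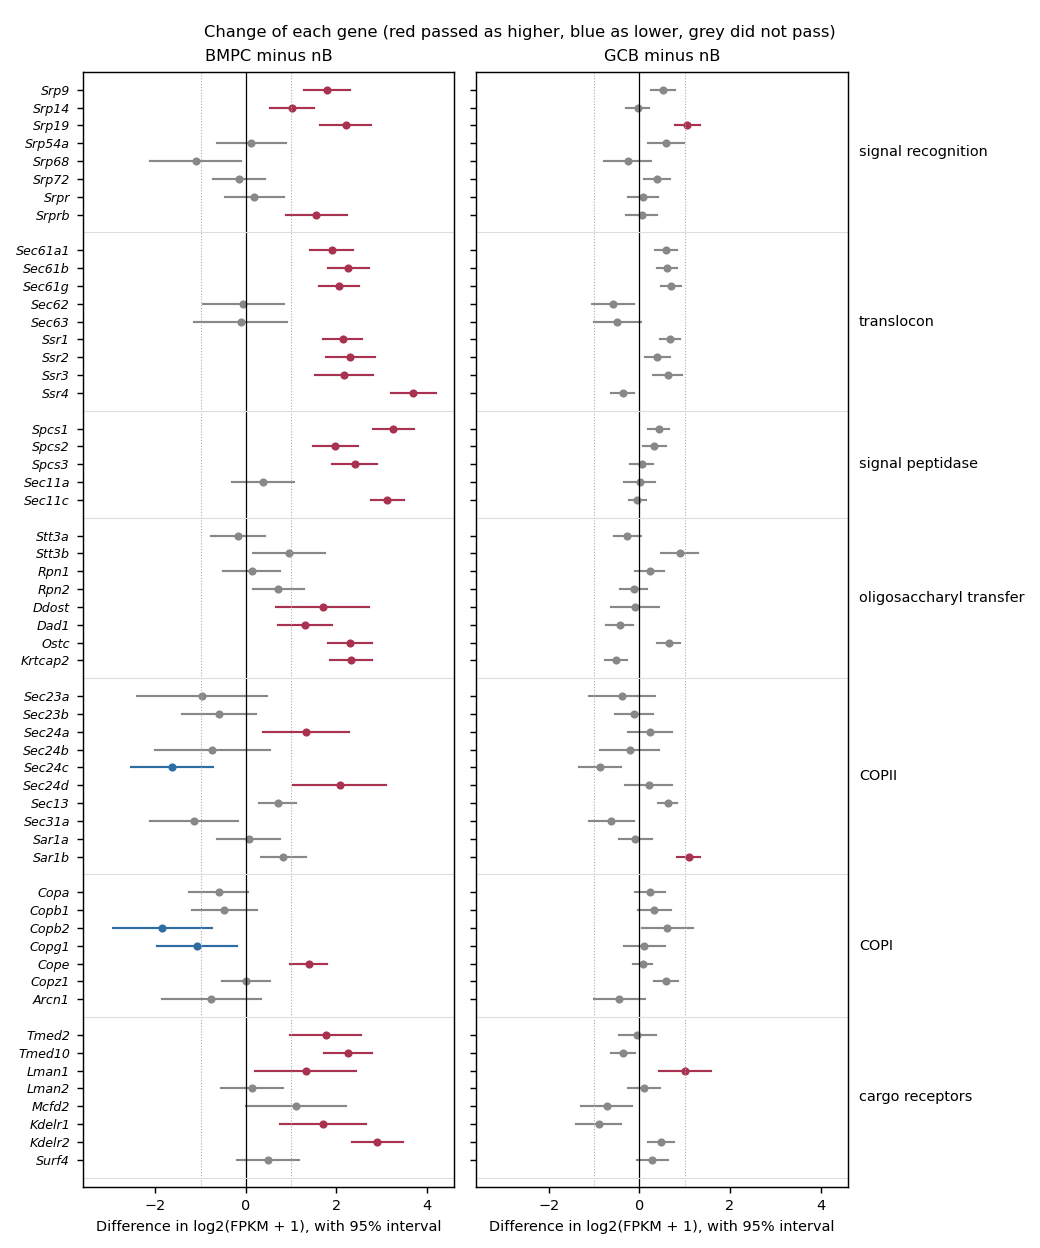
Difference in log2(FPKM + 1) of each gene between BMPC and nB (left) and between GCB and nB (right), mean of both genotypes, with its 95% interval and 6 libraries per cell type. Red points passed as higher and blue as lower, and the dotted lines mark a difference of 1. On the left 27 genes are red and 3 blue, and on the right 3 are red (Srp19, Sar1b and Lman1).

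In the translocon, Ssr4 rose most of all 55 genes. It encodes a subunit of the translocon-associated protein complex, which sits beside the channel, and lies at chrX:71032367-71036169 on the + strand (mm9; Entrez 20832). In nB its level was 153 at the lowest, 179 at the median and 193 FPKM at the highest. The same values for GCB were 110, 131 and 175, and for BMPC 1843, 2260 and 2898. No BMPC library came near the others, and Ssr4 went from place 419 among the genes of the table by mean FPKM in nB to place 26 in BMPC. The difference between BMPC and nB was 3.69 ± 0.24 (SE) on the log2(FPKM + 1) scale, with an adjusted p of 1.41e-09 by limma. Its partners in the complex rose less. Ssr2 stood at 82.5, 106 and 126 FPKM (lowest, median and highest) in nB and at 375, 513 and 775 in BMPC, a difference of 2.31 ± 0.26 (SE, limma adjusted p = 1.42e-06), and Ssr1 and Ssr3 rose by 2.13 and 2.17. The BMPC and nB libraries did not overlap for any of the 4. All 3 subunits of the channel rose as well, Sec61a1, which forms the pore, by 1.90, Sec61b by 2.26 and Sec61g by 2.05. Sec62 and Sec63, which serve chains that enter the channel after they are finished, did not pass. Sec63 had the lowest change of the step, with 4.44, 6.46 and 8.72 FPKM in nB and 0, 8.06 and 16.9 in BMPC, a difference of -0.12 ± 0.49 (SE, limma adjusted p = 0.87). Its BMPC libraries lay on either side of the nB libraries, and its sign turned under other settings.

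Signal peptidase is built from 3 Spcs subunits and either of 2 catalytic subunits, Sec11a or Sec11c. Spcs1 (chr14:31813012-31814858, - strand, mm9; Entrez 69019), which helps to select substrates, was at 71.4, 85.6 and 96.1 FPKM in nB, at 88.9, 118 and 136 in GCB and at 639, 842 and 990 in BMPC. It differed between BMPC and nB by 3.25 ± 0.22 (SE, limma adjusted p = 1.97e-09). Sec11c (Entrez 66286) was the most abundant of the 55 genes in nB, at 191, 226 and 289 FPKM, and held 204, 216 and 270 in GCB and 1699, 2094 and 2352 in BMPC. The difference was 3.13 ± 0.18 (SE, limma adjusted p = 3.44e-10), and in BMPC its mean was place 36 of the table. Spcs2 and Spcs3 rose by 1.98 and 2.41. Sec11a, the other catalytic subunit, had the lowest change of the step, with 56.5, 69.3 and 81.8 FPKM in nB and 31.1, 92.6 and 155 in BMPC, a difference of 0.37 ± 0.32 (SE, limma adjusted p = 0.363). The catalytic subunit that was the more abundant in nB thus rose, with a ratio of mean FPKM of 8.74, and the other did not pass.

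Among the SRP genes the small subunits rose. Srp19, needed to assemble the particle, stood at 53.4, 67.1 and 108 FPKM in nB, at 131, 151 and 168 in GCB and at 265, 334 and 429 in BMPC, which are 3 ranges without overlap. Its difference between BMPC and nB was 2.20 ± 0.27 (SE, limma adjusted p = 3.71e-06). Srp9, which with Srp14 slows the ribosome until the membrane is reached, was at 35.1, 58.2 and 64.8 FPKM in nB and 129, 191 and 233 in BMPC, a difference of 1.79 ± 0.24 (SE, limma adjusted p = 1.18e-05). Srp14 rose by 1.02 and Srprb, the membrane-anchored subunit of the receptor, by 1.55. The subunit that reads the signal sequence, Srp54a, and the large subunits Srp68 and Srp72 did not pass, nor did Srpr, the other receptor subunit. Srp68 had the lowest change, from 16, 35.8 and 49.6 FPKM in nB to 3.32, 18.2 and 34.2 in BMPC, a difference of -1.11 ± 0.48 (SE, limma adjusted p = 0.0684). Srp54a has near-identical copies in the mouse genome, and the alignment reported 1 place per read, so its level of 3.85 to 17.9 FPKM in BMPC is uncertain.

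In OST 4 of the 6 subunits that are not catalytic rose, and neither catalytic subunit passed. Krtcap2 (chr3:89049888-89053644, + strand, mm9; Entrez 66059) and Ostc join the complex that works beside the translocon. Krtcap2 was at 162, 192 and 255 FPKM in nB, went down to 99.7, 140 and 185 in GCB and up to 780, 1030 and 1293 in BMPC, and differed between BMPC and nB by 2.33 ± 0.22 (SE, limma adjusted p = 2.31e-07). Ostc was at 80.7, 99.7 and 138 FPKM in nB and 389, 507 and 641 in BMPC, a difference of 2.31 ± 0.23 (SE, limma adjusted p = 4.4e-07). Ddost and Dad1, subunits of every OST complex, rose by 1.70 and 1.31, and the ribophorins Rpn1 and Rpn2 differed by 0.13 and 0.72 and did not pass. Ddost overlapped between BMPC (22.5 to 135 FPKM) and nB (6.42 to 23.9), and it did not pass in Dnmt3-deficient libraries alone. Stt3a, the catalytic subunit that acts on chains still entering the channel, had the lowest change, with 102, 148 and 170 FPKM in nB and 56.3, 138 and 221 in BMPC, a difference of -0.17 ± 0.28 (SE, limma adjusted p = 0.653). Stt3b, the catalytic subunit that serves sites missed by Stt3a, was at 17.6, 21.9 and 32.9 FPKM in nB and 23, 45.5 and 79 in BMPC, and its difference of 0.96 ± 0.38 (SE, limma adjusted p = 0.0464) fell short of the minimum of 1. It passed with median of ratios scaling, at 1.12.

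In the COPII coat, change was mostly in Sec24, the subunit that binds cargo. Sec24d (chr3:122970414-123068553, + strand, mm9; Entrez 69608) rose from 2.12, 3.59 and 6.92 FPKM in nB to 12.2, 20.5 and 34 in BMPC, a difference of 2.07 ± 0.49 (SE, limma adjusted p = 0.00219), with every BMPC library above every nB library. Sec24a was at 2.01, 2.64 and 3.68 FPKM in nB and 3.62, 6.57 and 25.3 in BMPC, a difference of 1.33 ± 0.45 (SE, limma adjusted p = 0.0239). It no longer passed without Dnmt3-sufficient BMPC replicate 2 (adjusted p = 0.0916) or Dnmt3-deficient BMPC replicate 2 (adjusted p = 0.0979), where the range over all alternatives was 0.00626 to 0.198. Sec24c fell, from 45.4, 53.6 and 91.6 FPKM in nB over 22.7, 32 and 46.1 in GCB to 7.38, 18 and 47.5 in BMPC, a difference of -1.62 ± 0.43 (SE, limma adjusted p = 0.00505). Sec24b differed by -0.74 and did not pass. Of the rest of the coat, the inner partners Sec23a and Sec23b differed by -0.97 and -0.59, the outer subunits Sec13 and Sec31a by 0.70 and -1.14, and the GTPases Sar1a and Sar1b, which start the coat, by 0.06 and 0.82, and none of these passed. Sec23a and Sec24b each had 1 library at 3 reads or fewer, as had Sec63, so their levels in BMPC rest on few reads.

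In the COPI coat 1 of 7 genes was higher and 2 were lower, where 8.76% of all genes tested were higher and 33.5% lower. Cope (chr8:72826417-72836892, + strand, mm9; Entrez 59042), the ε subunit of coatomer, rose from 111, 123 and 153 FPKM in nB to 239, 321 and 531 in BMPC, a difference of 1.39 ± 0.19 (SE, limma adjusted p = 1.74e-05). Copb2 (chr9:98464150-98488794, + strand, mm9; Entrez 50797), the β′ subunit, which binds retrieval signals, fell from 36.3, 62.1 and 103 FPKM in nB to 0.97, 21.9 and 42.6 in BMPC, a difference of -1.84 ± 0.52 (SE, limma adjusted p = 0.00822). Its size rested in part on 1 library, since it was -1.17 without Dnmt3-deficient BMPC replicate 2, and it did not pass by voom on recovered reads (-1.98, adjusted p = 0.067). Over all alternatives its adjusted p ran from 0.00298 to 0.119. Copg1, the γ subunit, fell by 1.07 on that scale with an adjusted p of 0.0465 by limma, a call that was lost under several settings, median of ratios scaling among them. Copz1, the ζ subunit, had the next highest change of this step after Cope, at 101, 124 and 134 FPKM in nB, at 159, 186 and 211 in GCB and at 54.3, 117 and 288 in BMPC, which comes to -0.0034 ± 0.25 (SE, limma adjusted p = 1), and the sign of so small a value turned under other scalings. Copa, Copb1 and Arcn1 lay at -0.60, -0.48 and -0.76 and did not pass.

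Of the cargo receptors, Kdelr2 (chr5:144165499-144182951, + strand, mm9; Entrez 66913), which returns ER chaperones from the Golgi, rose most, from 40.1, 48.1 and 71.1 FPKM in nB and 61.4, 70.8 and 86.9 in GCB to 232, 426 and 484 in BMPC, a difference from nB of 2.90 ± 0.27 (SE, limma adjusted p = 1.55e-07). Tmed10, of the family that sorts cargo into both kinds of coat, was even across the 6 BMPC libraries, at 301, 340 and 379 FPKM against 54.7, 73.2 and 87.3 in nB, a difference of 2.25 ± 0.25 (SE, limma adjusted p = 1.49e-06). Tmed2 rose by 1.76 and Kdelr1 by 1.70. Lman1, a lectin that carries glycoproteins out of the ER, was at 3.07, 8.86 and 13.2 FPKM in nB, at 12.4, 18.3 and 22.1 in GCB and at 4.01, 37 and 58.8 in BMPC. Its difference of 1.32 ± 0.53 (SE) passed barely, at an adjusted p of 0.04996 by limma, and over the alternatives that p ran from 0.0166 to 0.993. Without Dnmt3-sufficient BMPC replicate 2 the difference was 0.88 (adjusted p = 0.215). Mcfd2, its partner, differed by 1.10 and Surf4, another export receptor, by 0.49, and neither passed. Lman2, a lectin of the Golgi side, had the lowest change, at 17.9, 21.2 and 30.9 FPKM in nB and 13.5, 26.6 and 37 in BMPC, a difference of 0.13 ± 0.33 (SE, limma adjusted p = 0.781).

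Exon length moved with the difference between BMPC and nB, in these genes and in all others. Over the 11522 genes tested, Spearman's rho between the difference and the summed exon length was -0.268, and over the 55 genes it was -0.515. These are correlations across genes, which share libraries and are not independent replicates. All genes of up to 1500 bases had a median difference of 0.13, with 22.1% higher and 13.5% lower, longer ones of up to 3000 bases one of -0.69 and those over 3000 bases one of -1.11, with 4.32% higher and 41.9% lower. Of the members, 10 of 12, 6 of 15 and 11 of 28 were higher in these 3 classes, with medians of 2.23, 0.72 and 0.13. Within each library the slope of log2 level on log2 length was above 0 for nB, from 0.106 to 0.175, below 0 for BMPC, from -0.225 to -0.105, and between these for GCB, from -0.00575 to 0.0474. With the trend on length taken out of each library, a setting chosen after seeing the data, 24 of the 55 genes were higher and 2 lower, against 7.19% higher and 30.8% lower of all genes. Of the calls above, Srp14 (-0.19), Sec61b (0.83), Sec61g (0.83), Krtcap2 (0.87) and Copg1 (-0.75) no longer passed, and Stt3b then passed at 1.28. Sec11c came to 1.89, Ostc to 1.41 and Srp19 to 1.28, each more than 1.5 times smaller than before, and Ssr4 to 2.50. Among members over 3000 bases, values moved upward, so that Ssr1 (10200 bases) came to 2.50 and Sec24a (12191 bases) to 1.70, while Sec24c came to -1.30, Copb2 to -1.60, Sec31a to -0.81 and Copa to -0.24, nearer to 0 than before. What part length, RNA quality or amplification had in these values was not tested.

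**Figure D3:**
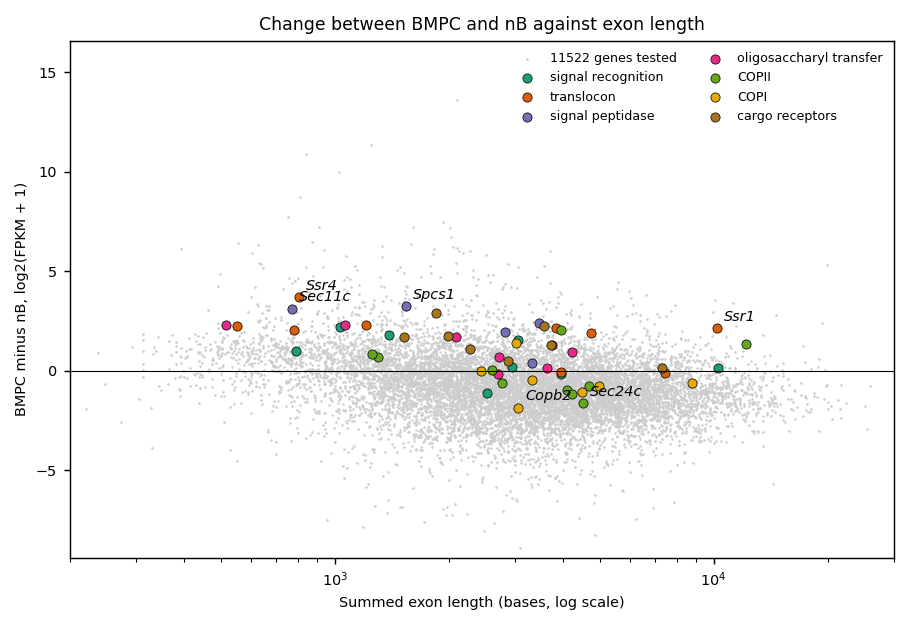
Difference between BMPC and nB in log2(FPKM + 1) against summed exon length (log axis) for the 11522 genes tested (grey) and the 55 genes, coloured by step. Grey points fall with length, from a median of 0.13 up to 1500 bases to -1.11 over 3000 bases. Most translocon, signal peptidase and cargo receptor genes lie above the median of all genes in their length class, though single grey points reach higher.

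Germinal center B cells, the dividing cells from which plasma cells can arise, were set against nB next. Only 3 of the 55 genes passed as higher and 0 as lower by limma, where 12.2% of all genes tested were higher and 16.6% lower, and voom on recovered reads also called 3. Sar1b rose by 1.09, from 64.9, 90.1 and 94.7 FPKM to 162, 185 and 202, Srp19 by 1.06 and Lman1 by 1.01. With the length trend removed Sar1b (0.86) and Srp19 (0.81) no longer passed, while Ssr1 (1.04) passed as higher and Kdelr1 (-1.09) as lower. Smaller differences were common. Without the minimum of 1, 28 of the 55 reached an adjusted p of 0.05 by limma, 19 higher and 9 lower, which is close to the 48.2% of all genes tested that did so. Among the 19 were the 3 Sec61 subunits (0.59 to 0.70), Ssr1, Ssr2 and Ssr3 (0.40 to 0.69), Ostc (0.65) and Sec13 (0.63). Genes below nB included Kdelr1 (-0.90), Sec24c (-0.87), Krtcap2 (-0.52) and Ssr4 (-0.37), so that Ssr4 and Krtcap2, among the highest in BMPC, were lower in GCB than in nB.

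Between BMPC and GCB, 26 of the 55 genes were higher in BMPC and 2 were lower, against 7.16% and 29.6% of all genes tested. This comparison shares its BMPC libraries with the first. Ssr4 differed by 4.06, Sec11c by 3.17 and Krtcap2 by 2.85. The lower genes were Copb2 (-2.46) and Copg1 (-1.18). With the length trend removed 22 were higher and 1 lower, against 6.7% and 28.8% of all genes tested. Ssr4 then came to 3.14, Sec11c to 2.21, Krtcap2 to 1.66 and Copb2 to -2.20, and Copg1 (-0.93) did not pass. The order of the 3 cell types thus differed from gene to gene. Sec61a1 ran from 42.8 to 63.9 FPKM in nB, with GCB next to it at 63.9 to 88.3 and BMPC apart at 150 to 245, whereas Sar1b was highest in GCB by the median, with BMPC (88.9 to 266) spread over both other ranges.

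Several steps have 2 genes for the same position, and scaling of a library moves their ratio only through the pseudocount of 1. A trend on exon length does move it where the 2 genes differ in length. Over 8 such pairs and 3 pairs of cell types, 9 of 24 exact two-sided permutation tests of 6 against 6 libraries passed at a Benjamini-Hochberg adjusted p of 0.05. The largest shift was in Sec24d over Sec24c. Its mean log2 ratio was -3.56 ± 0.79 (SD, n = 6) for nB, against -2.48 ± 0.45 for GCB and 0.13 ± 1.32 for BMPC, so the 2 cargo-binding subunits stood about level in BMPC while Sec24c was far ahead in nB (exact permutation adjusted p = 0.0104 for BMPC against nB and 0.0173 for BMPC against GCB). Sec11c over Sec11a went from 1.75 ± 0.21 in nB and 1.70 ± 0.23 in GCB to 4.50 ± 0.79 in BMPC (SD, n = 6; exact permutation adjusted p = 0.0104 for BMPC against each). BMPC overlapped neither of the others. Sec11c has 770 exon bases and Sec11a 3319, and with the length trend removed the difference between BMPC and nB fell from 2.75 to 1.24 and that between BMPC and GCB from 2.80 to 1.57 (exact permutation adjusted p = 0.0104 for each). In 4 pairs GCB differed from nB. Kdelr2 over Kdelr1 was 1.71 ± 0.13 in nB, against 3.09 ± 0.36 for GCB and 2.91 ± 0.83 for BMPC (SD, n = 6; exact permutation adjusted p = 0.0104 for GCB and 0.0404 for BMPC against nB). Sar1b over Sar1a was 0.53 ± 0.45 in nB, against 1.71 ± 0.37 for GCB and 1.29 ± 0.77 for BMPC (SD, n = 6), with an exact permutation adjusted p of 0.0104 for GCB against nB and 0.136 for BMPC against nB. With the length trend removed BMPC differed from nB by -0.068 and from GCB by -1.07 (exact permutation adjusted p = 0.957 and 0.026). Stt3a over Stt3b was 2.53 ± 0.58 in nB and lower in GCB, at 1.38 ± 0.56 (SD, n = 6; exact permutation adjusted p = 0.0297), and in BMPC it was 1.40 ± 0.95 (exact permutation adjusted p = 0.0519, and 0.0312 with the length trend removed). Lman1 over Lman2 rose from -1.33 ± 0.55 in nB to -0.42 ± 0.36 in GCB (SD, n = 6; exact permutation adjusted p = 0.039, and 0.0519 with the length trend removed), and in BMPC was -0.14 ± 1.42. Sec23b over Sec23a and Sec24a over Sec24b passed in none of the 3 comparisons, and the latter spread from -2.07 to 2.42 over the BMPC libraries.

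**Figure D4:**
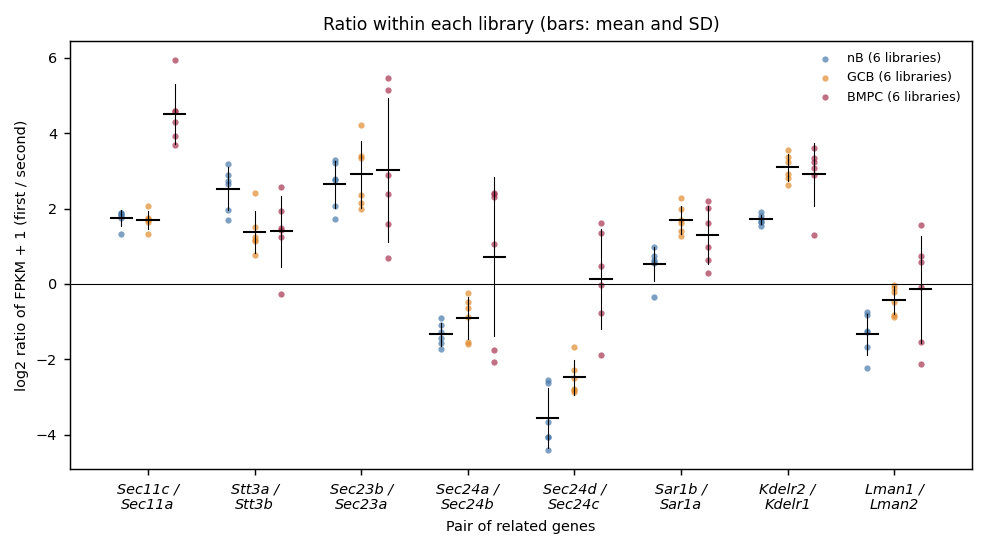
Log2 ratio of FPKM + 1 between the first and the second gene of each of 8 pairs, 1 point per library, with the mean (wide bar) and SD (thin bar) of the 6 libraries of each cell type. Sec11c over Sec11a stands apart from both other cell types in BMPC, at a mean of 4.50, Sec24d over Sec24c, at 0.13, stands apart from nB and overlaps GCB, and Kdelr2 over Kdelr1 has a higher mean in GCB and BMPC than in nB, with 1 BMPC library below the nB points.

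Loss of Dnmt3a and Dnmt3b was compared within each cell type. No member passed by limma in nB, GCB or BMPC, where 0.0868%, 0.0174% and 0.148% of all genes tested did, and voom on recovered reads also called 0 in each. At an unadjusted p under 0.05 there were 1, 5 and 1, where the shares of all genes tested were 5.41%, 6.33% and 7.55%. The 95% interval of the difference lay within 1 of 0 for 40 of the 55 genes in nB and for 50 in GCB, but only for 7 in BMPC, where the median interval reached 1.19 to each side, so that a difference of 1 was within reach of the error for most genes there. Groups of 3 libraries did not overlap for 4 genes in nB, 10 in GCB and 9 in BMPC, where the shares of all genes tested were 8.84%, 10.6% and 10.3%.

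In BMPC, Lman1 had the largest difference, with 5.52, 34.6 and 4.01 FPKM in the Dnmt3-sufficient and 39.4, 58.8 and 47.3 in the Dnmt3-deficient libraries. The groups did not overlap, the difference (deficient minus sufficient) was 2.22 with a 95% interval of 0.19 to 4.24, and it did not pass (limma adjusted p = 0.628). Taken by genotype, Lman1 differed between BMPC and nB by 2.67 in the Dnmt3-deficient and by -0.04 in the Dnmt3-sufficient libraries. These differed by 2.71, which did not pass either (limma adjusted p = 0.622). Sec63 was lower in Dnmt3-deficient BMPC, at 4.77, 0 and 7.05 against 16.9, 9.32 and 9.06 FPKM, a difference of -1.77 (limma adjusted p = 0.713), as was Ddost, at 26, 22.5 and 33.3 against 33.9, 108 and 135, a difference of -1.52 (limma adjusted p = 0.791). Ssr1 stood higher in Dnmt3-deficient libraries without overlap in both GCB and BMPC, at 79.7, 76.2 and 78.6 against 67.9, 67.6 and 71.6 FPKM in GCB and at 201, 270 and 284 against 146, 173 and 176 in BMPC, where the difference was 0.59 (limma adjusted p = 0.833). Leading genes of the first comparison were mixed in BMPC. Spcs3 stood higher in Dnmt3-deficient libraries without overlap, at 347, 551 and 407 against 270, 330 and 298 FPKM. So did Spcs2, at 492, 677 and 645 against 372, 340 and 423 FPKM, and neither passed. Genotypes overlapped for Ssr4, Spcs1, Sec11c and Krtcap2. Sec11c was at 2299, 2221 and 1699 FPKM in Dnmt3-sufficient and 1794, 1967 and 2352 in Dnmt3-deficient BMPC, and Krtcap2 at 1084, 1057 and 1003 against 780, 898 and 1293. In GCB the lowest unadjusted p belonged to Krtcap2, at 148, 152 and 185 FPKM in Dnmt3-sufficient and 132, 99.7 and 132 in Dnmt3-deficient libraries, a difference of -0.41 (limma adjusted p = 0.523). The largest difference in GCB was that of Arcn1, the δ subunit of coatomer, at 21.4, 45.7 and 25.5 FPKM in Dnmt3-deficient and 15.4, 20.3 and 10.7 in Dnmt3-sufficient libraries, without overlap, a difference of 0.92 (limma adjusted p = 0.573). In nB the largest difference was that of Surf4, at 0.57 (limma adjusted p = 0.902).

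**Figure D5:**
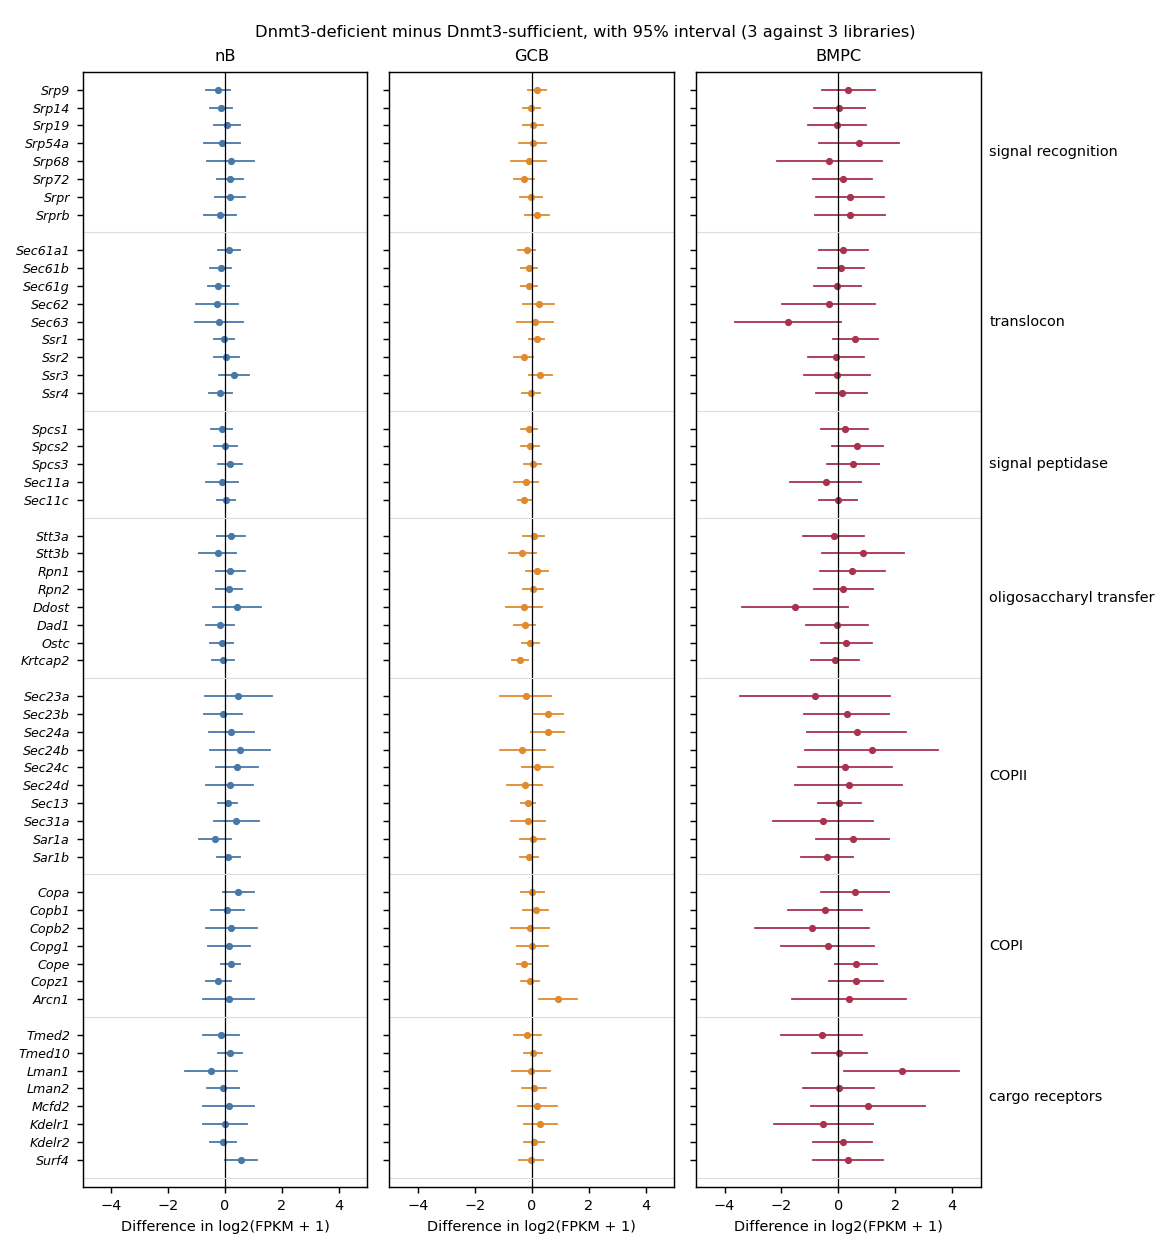
Difference in log2(FPKM + 1) between Dnmt3-deficient and Dnmt3-sufficient libraries, 3 against 3, for each of the 55 genes in nB, GCB and BMPC, with its 95% interval. Points run from -0.49 to 0.57 in nB and from -0.41 to 0.92 (Arcn1) in GCB, and the intervals are widest in BMPC, where Lman1 (2.22), Sec63 (-1.77) and Ddost (-1.52) lie farthest from 0 and did not pass.

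Whether the change from nB depended on the genotype was tested directly as an interaction. By limma, 0 of the 55 genes passed for BMPC against nB, where 0.104% of all genes tested did, and 0 for GCB against nB, where 0.026% did. Voom on recovered reads also called 0, and 1 gene had an unadjusted p under 0.05 in each, Lman1 and Cope. Within the Dnmt3-sufficient libraries alone 22 of the 27 higher genes passed again, and 23 within the Dnmt3-deficient ones. Of the 3 lower genes, Sec24c, Copb2 and Copg1, 0 passed in either genotype alone, where fewer libraries were compared.

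A wider list of 86 genes of the same route, kept apart from the 55, had 82 genes tested. Of these 13 were higher and 16 lower in BMPC than in nB, with a median difference of -0.22, where 8.76% of all genes tested were higher and 33.5% lower. In targeting and insertion, 3 of 18 were higher and 2 lower. Tram2 and Tram1, which sit beside the channel, rose by 3.54 (limma adjusted p = 0.00161) and 2.04 (1.88e-06), and Sec61a2, the second gene for the pore, fell by 2.33 on that scale (0.0014). Among 29 genes that build and trim the sugar chain, 2 were higher and 4 lower. Alg5, which makes a glucose donor, rose by 2.25 (limma adjusted p = 0.000576) and Tmem258, a small OST subunit, by 1.65 (2.71e-05), while Dolk, which makes the lipid carrier of the chain, fell by 2.92 (0.00216). Of 16 genes of COPII assembly and vesicle docking, 1 was higher and 4 lower, with Bet1, a SNARE of ER to Golgi vesicles, at 2.33 (limma adjusted p = 9.34e-05) and the GTPase Rab1b at -2.11 (0.00667), while Tfg, at 0.90 (0.121), did not pass. Of 19 further COPI and cargo genes, 7 were higher and 6 lower, with Ergic1 at 3.15 (limma adjusted p = 0.00191), the cargo receptor Tmed3 at 2.04 (9.92e-05) and Arfgap1, which helps COPI vesicles to uncoat, at -2.70 (0.00226). In GCB against nB 1 of the 82 was higher and 9 lower, where 12.2% and 16.6% of all genes tested were. Between genotypes 0 passed by limma in nB, GCB or BMPC, and 3, 6 and 9 had an unadjusted p under 0.05, as had 5.41%, 6.33% and 7.55% of all genes tested.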

How the data were processed

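RNA-seq was carried out on amplified cDNA of 18 libraries. Per the study's methods, the authors aligned reads to mm9 with TopHat, reported at most 1 alignment per read, counted reads on the exons of UCSC known genes with summarizeOverlaps and deposited the values as FPKM. The strand setting of that counting was not given in the sources used here. The deposited table also holds the fold changes and FDR of the authors' own edgeR 3.12.1 test (R 3.2.2), which were not used. Of its 21761 genes 92 have no symbol. Values were whole multiples of 1 read within 0.01, from which the reads of each library on these genes were recovered.

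Groups were taken from the sample labels. The 11522 genes that exceeded an FPKM of 1 in 2 or more libraries were fitted with limma 3.58.1 in R 4.3.3 on log2(FPKM + 1), a scale that understates the change of low genes. The fit had 1 mean per group, 1 variance weight per cell type, a mean-variance trend and Benjamini-Hochberg adjustment over all genes tested. All 55 genes passed the filter. The fit was also run on simulated counts with known changes. These held no difference in length trend or in RNA of other cells between the groups compared. That run therefore does not check the fit where such differences are present. Ratios of paired genes were compared by exact permutation in scipy 1.17.1 (Python 3.11.15). Genes were matched to mm9 coordinates (GENCODE vM1) by symbol, Copg1 by an older one. Full values are given in each step for the 2 genes with the largest and the 1 with the smallest signed BMPC minus nB change and for paired genes. Genes named beyond that were chosen after their values were seen. The members and lists were chosen with earlier results of these data known. Alternatives were other pseudocounts, filters, scalings, weights, sex as a covariate, voom on recovered reads, single genotypes and leaving out each library. Reads carried no molecular identifiers, and small SRP and Sec61 genes have processed pseudogenes that can share reads with them.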

Additional observations from a re-analysis of the deposited data

Results flagged for a closer look

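Cope, the ε subunit of coatomer, moved in opposite directions with genotype in GCB and BMPC. Every Dnmt3-deficient GCB library lay below every Dnmt3-sufficient one, at 131, 108 and 131 against 140, 143 and 160 FPKM, a difference of -0.27. Every Dnmt3-deficient BMPC library lay above, at 354, 386 and 531 against 288, 239 and 287 FPKM, a difference of 0.62. Neither difference passed by limma, and the difference between GCB and BMPC itself was not tested.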

How the results depend on the processing

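The count of the 55 genes that passed stayed within 1.5 times its value in each of the 8 comparisons under the alternatives run, except that without the minimum change 28 rather than 3 passed in GCB against nB. Leaving out 1 library gave 28 to 31 genes for BMPC against nB, 2 to 4 for GCB against nB, 27 to 29 for BMPC against GCB, 0 to 0 for each comparison of genotypes or interaction, and 6 to 10 of the 24 ratio tests. Median of ratios scaling moved the median of all genes from -0.79 to -0.69 for BMPC against nB and from -0.66 to -0.52 for BMPC against GCB, and that of the 55 genes from 1.02 to 1.19 and from 0.85 to 1.07. Copg1 and Lman1 lost their calls most often, and Sec24c, Copb2 and Copg1 each lost theirs in either genotype alone.

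Signs turned only for named genes and ratios that had not passed, and for Lman1. With median of ratios scaling Sec63 came to 0.0043, Stt3a to 0.000361 and Copz1 to 0.17. Copz1 was 0.089 when rescaled without Jchain, and Sar1a was -0.047 with sex as a covariate and -0.012 by voom. In Dnmt3-sufficient libraries alone Sec63 was 0.67, Stt3a 0.023, Sar1a -0.37 and Lman1 -0.037, and in Dnmt3-deficient ones Copz1 was 0.42. With the length trend removed Sec63 was 0.24 and Copz1 0.071, and the ratios Stt3a/Stt3b and Kdelr2/Kdelr1 (BMPC against GCB) were -0.0396 and 0.0018 and Sar1b/Sar1a (BMPC against nB) -0.068. Then 10 ratio tests passed rather than 9. Leaving out 1 library gave ranges of -0.41 to 0.34 for Sec63, -0.39 to 0.095 for Stt3a, -0.24 to 0.21 for Copz1, -0.026 to 0.32 for Lman2 and -0.16 to 0.32 for Sar1a. For ratios the ranges were -0.13 to 0.024 for Sec11c/Sec11a (GCB against nB), -0.21 to 0.36 for Stt3a/Stt3b, -0.33 to 0.14 for Kdelr2/Kdelr1 and -0.058 to 0.68 for Lman1/Lman2 (BMPC against GCB). For Sec23b/Sec23a they were -0.10 to 0.85 (BMPC against nB), -0.0016 to 0.45 (GCB against nB) and -0.37 to 0.59 (BMPC against GCB). The cause was not tested.

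GCB libraries of both genotypes share tags in their titles, but same-tagged libraries did not deviate together (correlations -8.06e-05, -0.0171 and 0.0257). With the replicate block 0 genes passed, as without it. Reads on the genes of the table were fewest in BMPC. How far this limits the results there, next to other differences between libraries, was not tested.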

Other observations

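Sec24a and Sar1b, both of the COPII coat, lie head to head on chromosome 11 (mm9), with 52 bases between the end of Sec24a at 51577136 on the - strand and the start of Sar1b at 51577189 on the + strand. Sar1b differed from nB by 1.09 in GCB and 0.82 in BMPC, and Sec24a by 1.33 in BMPC. A difference between the 2 genes was not tested.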
